A study of Mus musculus with 2 samples.

Results

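The genes described here are 5 mouse miRNA genes linked to mesenchyme, the supporting tissue of an organ: Mir214, Mir140, Mir199b, Mir199a-2 and Mir199a-1. They were chosen by gene symbol, as the rows of the count tables whose Ensembl identifier carries one of these symbols in the GENCODE mouse annotation, and all 5 of 5 were found among the 1973 miRNA genes in the tables. The libraries are small RNA below 30 nt from whole stomachs of B6NCrl mice at postnatal day 0, 1 stomach per library. They come from 2 pups of 1 dam, and the labels name no genetic change or treatment and give the sex as not collected. Both pups form 1 group, so no contrast between conditions exists, and spreads and p-values refer to these 2 littermates.

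A miRNA gene is transcribed as part of a longer RNA, from which a hairpin is cut. The hairpin gives a short RNA from its 5′ arm (5p) and another from its 3′ arm (3p), and the loaded arm recognises target mRNAs mainly through its seed, bases 2 to 8. Mir199a-2 and Mir214 are carried by Dnm3os, an RNA transcribed opposite to Dnm3 that is required for normal mouse growth and skeletal development and is known to respond to the mesenchymal factor Twist1. Mir140 lies within Wwp2 and is known as a cartilage miRNA gene whose loss in mice impairs skeletal growth. In gut wall, fibroblasts and other mesenchymal cells are the usual source of miR-199 and miR-214. Counts from a whole stomach do not tell which cells the reads came from, and a smaller number of such cells cannot be told apart from less RNA per cell.

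The mature sequences are shown because they decide which reads can be given to 1 gene. They are from RefSeq (GRCm38.p6), read 5′ to 3′, with the seed in capitals.
miR-214-5p: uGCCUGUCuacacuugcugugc
miR-214-3p: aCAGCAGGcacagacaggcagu
miR-140-3p: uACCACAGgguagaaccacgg
miR-199a-5p: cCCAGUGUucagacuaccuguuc
miR-199a-3p and miR-199b-3p: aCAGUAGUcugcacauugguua

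The table lists 2 arms for Mir214, Mir199a-2 and Mir199a-1 and 1 arm for Mir140 and Mir199b. The 3p arms of all 3 miR-199 genes were identical base for base, so they form 1 seed group with the seed CAGUAGU. The 5p arm of Mir199a-2 and that of Mir199a-1 were also identical, with the seed CCAGUGU. Neither the arms of Mir214 nor the listed arm of Mir140 occurred in the hairpin of another gene of the table.

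The 3 miR-199 hairpins follow, with the listed arms in capitals. Arms that these genes list in common are identical, so the differences between those genes lie outside such arms.
Mir199b: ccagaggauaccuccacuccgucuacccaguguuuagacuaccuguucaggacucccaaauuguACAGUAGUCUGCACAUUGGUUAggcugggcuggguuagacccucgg
Mir199a-2: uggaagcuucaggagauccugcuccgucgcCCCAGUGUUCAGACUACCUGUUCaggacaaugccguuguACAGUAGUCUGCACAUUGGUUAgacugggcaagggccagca
Mir199a-1: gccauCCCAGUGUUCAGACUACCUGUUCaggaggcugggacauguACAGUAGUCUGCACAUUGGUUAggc

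Mir199a-2 and Mir199a-1 shared a longest stretch of 27 nt around the 5p arm. Mir199b shared 28 nt with Mir199a-1 and 27 nt with Mir199a-2, both around the 3p arm. On the other arm, the best ungapped match of miR-199a-5p in the Mir199b hairpin had 1 mismatch in 23 nt, C10U, counted from 1 at the 5′ end of miR-199a-5p (the miR-199a base first). The stretches are shown with that base in capitals.
miR-199a-5p: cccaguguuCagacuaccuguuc
Mir199b hairpin: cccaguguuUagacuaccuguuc

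Windows of 20 nt were looked up in all other miRNA hairpins of GENCODE M21. Of the windows of Mir199a-1, 17 of 51 (33.3%) occurred in another hairpin, and so did 16 of 91 (17.6%) for Mir199a-2 and 10 of 91 (11.0%) for Mir199b. For Mir214 it was 0 of 91 and for Mir140 0 of 51. Mir214 shared no stretch over 7 nt with a miR-199 hairpin, although Mir199a-2 lies on the same host RNA. At the same annotated length of 110 nt, the hairpin of Mir214 had a predicted minimum folding energy of -67.5 kcal/mol, against -42.5 kcal/mol for Mir199a-2 and -42.1 kcal/mol for Mir199b. The shorter hairpins, of 70 nt each, stood at -39.1 kcal/mol for Mir140 and -28.9 kcal/mol for Mir199a-1.

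**Figure D1:**
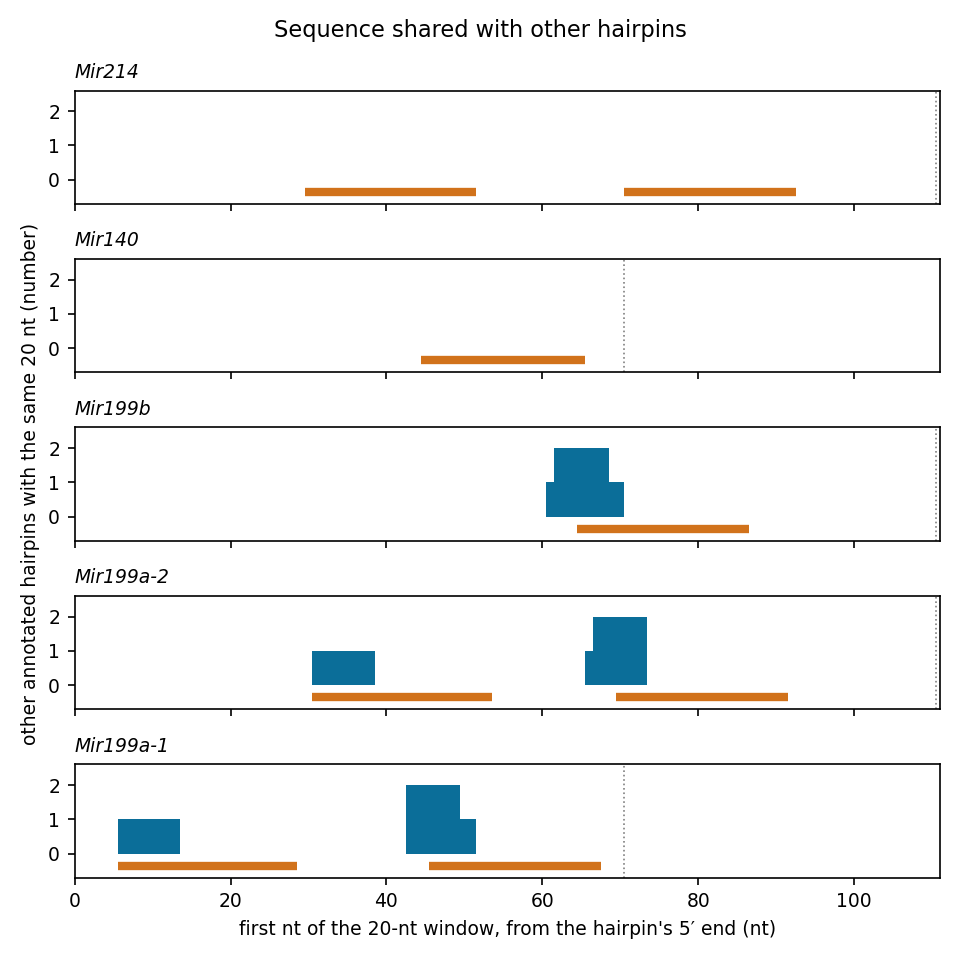
For each hairpin, the bars give the number of other annotated miRNA hairpins (y axis) that hold the 20-nt window starting at that position (x axis, nt from the hairpin's 5′ end). Orange bars below 0 are the listed mature arms and the dotted line is the end of the hairpin. Shared windows cluster at the arms of the miR-199 genes, and Mir214 and Mir140 have none.

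Of the 5 genes, 4 share an arrangement in the genome (GRCm38, to which mm10 corresponds), in which the hairpin lies within an intron of a dynamin gene, on the opposite strand. Dynamins are the enzymes that pinch vesicles from membranes. Mir199a-2 (ENSMUSG00000070126.1, chromosome 1, 162217814 to 162217923, plus strand) and Mir214 (ENSMUSG00000065516.1, chromosome 1, 162223368 to 162223477, plus strand) lie opposite Dnm3. Both overlap an exon of Dnm3os, at 191 and 5745 nt from its annotated start, and their starts are 5554 nt apart. Mir199b (ENSMUSG00000092807.1, chromosome 2, 32318460 to 32318569, plus strand) lies opposite Dnm1, and Mir199a-1 (ENSMUSG00000065547.1, chromosome 9, 21496495 to 21496564, minus strand) opposite Dnm2. Neither has an annotated host on its own strand. Mir140 (ENSMUSG00000065439.1, chromosome 8, 107551244 to 107551313, plus strand) lies within Wwp2, a ubiquitin ligase gene, on the same strand. Its hairpin is intronic to the coding transcripts and overlaps an exon of a retained-intron transcript.

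Of 1894 miRNA genes that matched the annotation, 263 (13.9%) lie opposite a protein-coding gene that encloses them, and 5 of these lie opposite one of the 3 dynamin genes. The fifth is Gm23363, a miRNA gene 116 nt before Mir199b on the same strand, with 4 counts in pup 1 and 2 in pup 2. It was the other miRNA gene of the tables within 10 kb of any of these hairpins, besides Mir214 and Mir199a-2 themselves.

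The counts come from tables in which each library had 4463355 (pup 1) and 3454655 (pup 2) reads on the miRNA genes' own strand. Levels are given as counts per 1000000 of these (CPM). A read is a whole small RNA, so counts were not divided by length. Reads that mapped to several places, 26.0% and 25.7% of all reads, were given to no gene. Detection means at least 10 counts in each library, which 305 genes passed and all 5 of these genes did. A count of 0 allows up to 0.672 CPM in pup 1 and 0.868 CPM in pup 2. All intervals cover counting error only. The stomach label was set against marker miRNA genes. All 3 squamous, 5 general epithelial, 4 glandular and 2 smooth muscle genes were detected, as were the endothelial gene Mir126a and the 3 leukocyte genes analysed. Of 5 striated muscle genes 2 were detected, and of 5 neuronal genes none, 4 of which had 0 counts in both pups. The undetected genes of both lists, such as Mir124a-1 and Mir124a-2, are numbered copies, and a read shared by copies is given to no gene. Their low counts therefore cannot show that such cells were absent. The hepatocyte gene Mir122 stood at 230 ± 35.2 CPM.

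Mir214, which is known to act in bone and fibroblast biology, was the most abundant of the 5 by far. It had 16415 counts in pup 1 and 12272 in pup 2, or 3678 CPM (exact 95% interval 3622 to 3734) and 3552 CPM (3490 to 3616). The mean was 3615 ± 88.7 CPM (SD, n = 2), which placed it 39 of the 305 detected genes. It made up 69.7% of the reads of the 5 genes in pup 1 and 67.3% in pup 2.

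Mir140 was next. It had 5519 counts in pup 1 and 4526 in pup 2, or 1237 and 1310 CPM, with a mean of 1273 ± 52.0 CPM (SD, n = 2). It ranked 76 of 305 and contributed 23.4% and 24.8% of the reads of the 5 genes. Mir214 exceeded it in both pups, by 2.97-fold in pup 1 and 2.71-fold in pup 2, or 1.51 ± 0.0944 on the log2 scale.

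The 3 miR-199 genes were lower and differed among themselves. Mir199b had 1332 counts in pup 1 and 1126 in pup 2, or 298 and 326 CPM, with a mean of 312 ± 19.5 CPM. Mir199a-2 had 260 and 267 counts, or 58.3 CPM in pup 1 and 77.3 CPM in pup 2. Mir199a-1 had 26 and 32 counts, or 5.83 CPM (exact 95% interval 3.81 to 8.54) and 9.26 CPM (6.34 to 13.1). In each pup the values of the 3 genes were separated by more than the counting intervals. Their ranks among the 305 genes were 125, 189 and 273, so that Mir199b stood above the median level of the detected genes, 166 CPM, and the other two below it.

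Each step down the order exceeded its spread between the pups. Mir140 exceeded Mir199b by 2.03 ± 0.0310 on the log2 scale, Mir199b exceeded Mir199a-2 by 2.22 ± 0.198, and Mir199a-2 exceeded Mir199a-1 by 3.19 ± 0.185. All 4 steps kept their direction per nucleotide of annotated hairpin. With 2 libraries an exact permutation test cannot give a p under 0.5, so the steps are set against the SD.

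**Figure D2:**
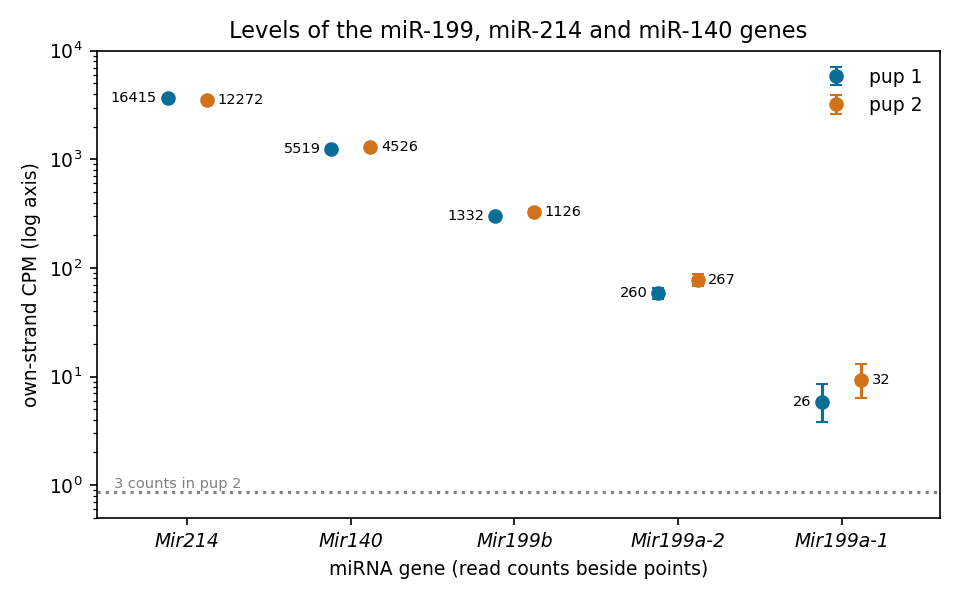
Own-strand CPM (y axis, log) of the 5 genes (x axis) in pup 1 and pup 2. Points are single libraries with exact 95% counting intervals, the numbers are read counts, and the dotted line is the level of 3 counts in pup 2. The order from Mir214 to Mir199a-1 is the same in both pups, and the lowest gene has 26 and 32 reads.

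**Figure D3:**
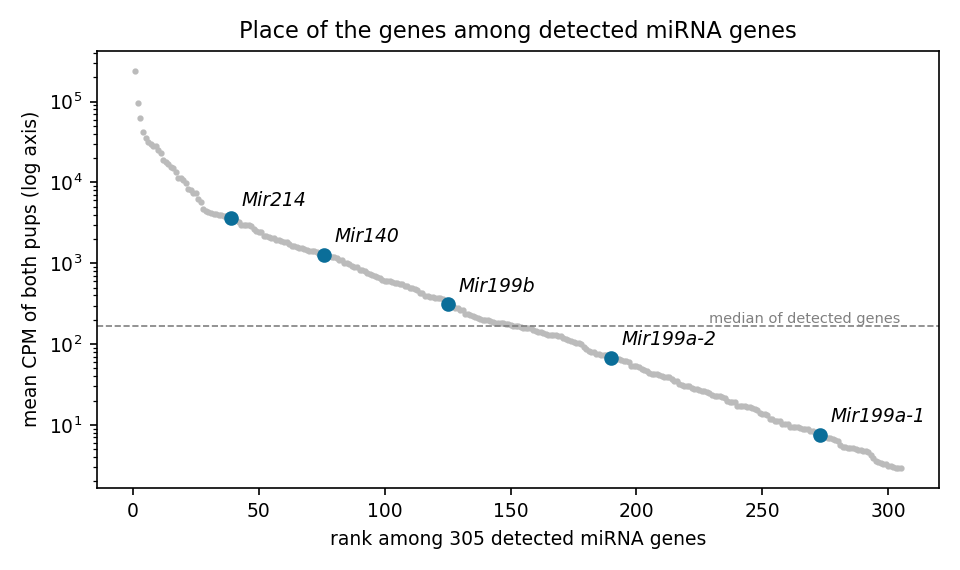
Mean CPM of both pups (y axis, log) against the rank of each of the 305 detected miRNA genes (x axis). The dashed line is the median of 166 CPM. Mir214, Mir140 and Mir199b lie above it, Mir199a-2 and Mir199a-1 below.

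The 3 miR-199 genes together had 1618 counts in pup 1 and 1425 in pup 2, or 0.0387% ± 0.00353 of own-strand counts. The reads given to no gene because they mapped to several places numbered 1873722 in pup 1 and 1425289 in pup 2. How many of those were miR-199 reads cannot be told from the tables, which give no sequences. The counts of these genes are therefore uncertain as levels of the mature miRNAs, in particular for the 3p arm, and the order among the 3 genes describes assigned reads.

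The same measure was taken over the RefSeq table, by whether a gene's listed arms occur in another gene's hairpin. Of 916 analysed genes with a listed arm, 37 had no arm of their own, among them the 3 miR-199 genes, and 7 of the 37 (18.9%) were detected. Of 828 genes whose listed arms were all their own, among them Mir214 and Mir140, 242 (29.2%) were detected. The other 51 genes had some arms of their own, and 33 of them (64.7%) were detected, the highest share. Only a gene with at least 2 listed arms can fall among these 51, so the groups differ in more than sharing. The part of sharing in detection was not tested. Above 1000 CPM lay 0 of the 37 genes, 2 of the 51 and 79 of the 828. Mir199b had the highest mean level of the 37, where it counts by its 1 listed arm, and Mir199a-2 and Mir199a-1 stood at places 4 and 7.

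Mir214 and Mir199a-2 are carried by the same host RNA but stood apart in level, with Mir140 and Mir199b between them. Mir214 exceeded Mir199a-2 63.1-fold in pup 1 (16415 against 260 counts) and 46.0-fold in pup 2 (12272 against 267). On the log2 scale the ratio was 5.98 (exact 95% interval 5.80 to 6.16) in pup 1 and 5.52 (5.35 to 5.70) in pup 2, with a mean of 5.75 ± 0.324 (SD, n = 2). The 2 intervals, which hold counting error only, did not overlap. Both listed arms of Mir199a-2 occur in another gene's hairpin and neither of Mir214 does, and the part of this in the ratio was not tested.

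Reads on the strand opposite to the genes were looked for, since 4 of the genes lie inside a gene of the other strand. All 5 had 0 opposite-strand counts in both pups. Of the 305 detected genes, 286 (93.8%) also had 0 in both, so the 5 genes were like nearly all others in this.

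Seeds shared with genes outside the set were found for 2 arms. The sequences are from the same RefSeq table.
miR-761: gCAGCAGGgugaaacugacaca
miR-497b: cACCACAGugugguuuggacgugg

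miR-761 (Mir761) has the seed of miR-214-3p, and its gene had 0 counts in both pups. miR-497b (Mir497b) has the seed of miR-140-3p, and its gene had 0 counts in pup 1 and 1 in pup 2 on its own strand. On the strand opposite to Mir497b there were 3540 and 2942 counts, which belong to that strand and not to miR-497b. Among the genes with a listed arm of the seed CAGCAGG or ACCACAG, all own-strand reads but 1 were thus counted to Mir214 and Mir140, where a gene's count holds both of its arms.

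The detected genes nearest in level to each of the 5 were found by distance in log2 CPM over the 2 pups, which says nothing of shared function. Mir214 lay nearest to Mir487b (distance 0.0933), Mir215 (0.178) and Mir351 (0.191). Mir140 lay nearest to Mir139 (0.0396), Mir195a (0.0819) and Mir361 (0.147). Mir199b had Mir186 (0.143), Mir125b-1 (0.150) and Mir374b (0.220) beside it. Mir199a-2 had the same counts as Mir874 in both pups, followed by Mir675 (0.127), a gene within the imprinted RNA H19, and Mir146 (0.143). Mir199a-1 lay nearest to Mir6540 (0.141), Mir466n (0.258) and Mir1224 (0.318). The mean of Mir140 differed from that of Mir139 (1252 ± 33.4 CPM) and of Mir195a (1308 ± 1.42 CPM) by less than the SD of Mir140. For Mir195a the difference exceeded that gene's own SD.

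Between the pups, none of the 5 genes was called. A call needed an adjusted p under 0.05 in a two-sided exact binomial test against TMM-scaled library sizes and a ratio of at least 1.5, with Benjamini-Hochberg adjustment over the 305 genes. By this rule 9 of 305 genes (2.95%) were called, 2 higher in pup 1 (0.656%) and 7 higher in pup 2 (2.3%), so 0 of 5 is near that share. Scaled by total counts, 1 gene was higher in pup 1 and 15 in pup 2, and on DESeq2 size factors 4 and 6, with 0 of the 5 among them. The test compares 2 libraries and holds counting error only. The edgeR exact test took a dispersion common to all genes, estimated with both pups as 1 group. The difference between the pups thus entered that estimate, which makes few calls likely. This edgeR test called 0 of the 5 and 1 of 305 (0.328%). Its unadjusted p was under 0.05 for 0 of the 5 and 16 of 305.

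Mir214 was slightly higher in pup 1, with a log2 ratio of pup 1 over pup 2 of 0.15 (exact 95% interval 0.12 to 0.19), or 1.11-fold. Its adjusted p in the exact binomial test was 3.7e-18, well past the threshold at this depth, but the ratio was under 1.5. Mir199a-2 was lower in pup 1 at -0.30 (-0.56 to -0.05, adjusted p = 0.032, exact binomial test). An adjusted p under 0.05 without regard to the ratio was reached by 2 of the 5 genes and by 159 of 305 (52.1%). For Mir140 (0.02, -0.04 to 0.08) and Mir199b (-0.02, -0.14 to 0.09) the interval held 0. Scaled by total counts, Mir140 stood at -0.08 with an adjusted p of 0.0097 in the exact binomial test. Mir199a-1, at -0.57, had an interval of -1.37 to 0.23, wide enough to hold both no difference and one over 2-fold.

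The median absolute log2 ratio was 0.15 over the 5 genes and 0.17 over the 305. Mir199b was the median gene of all 305 by its ratio between the pups, as it was of these 5. The sum of the 5 genes was close in both pups, at 0.528% (exact 95% interval 0.521% to 0.534%) and 0.527% (0.520% to 0.535%) of own-strand counts. Within that sum the share of Mir214 was 69.7% (69.1% to 70.3%) in pup 1 and 67.3% (66.7% to 68.0%) in pup 2. Mir140 held 23.4% (22.9% to 24.0%) in pup 1 and 24.8% (24.2% to 25.5%) in pup 2, again without overlap of the intervals.

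**Figure D4:**
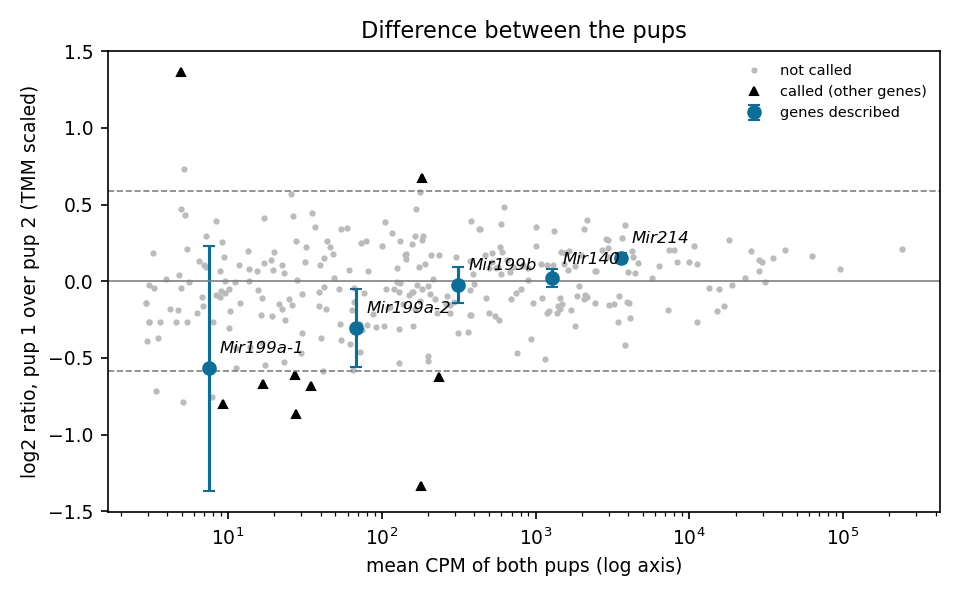
Log2 ratio of pup 1 over pup 2 after TMM scaling (y axis) against mean CPM (x axis, log) for the 305 detected genes. Blue points with exact 95% intervals are the 5 genes described, triangles are called genes and dashed lines mark a ratio of 1.5. None of the 5 is called, and the interval of Mir199a-1 is the widest of the 5.

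Other miRNA genes linked to mesenchyme were taken from 3 lists. Of the cartilage and skeletal list 5 of 5 were detected, holding 1.59% ± 0.0267 of own-strand counts, with Mir22 at 11214 ± 56.2 CPM and Mir27b at 2977 ± 165 CPM. The fibroblast and matrix list had 4 of 6 detected and held 3.18% ± 0.174, nearly all of it Mir21a, a miRNA gene active in fibroblasts and many other cells, at 31266 ± 1682 CPM, with Mir152 at 278 ± 42.2 CPM. Mir29b-1 (4 and 4 counts) and Mir29b-2 (2 and 4) of that list were not detected. They are numbered copies, and a read shared by both would be given to no gene, so absence cannot be told from these counts. The list linked to Twist factors and epithelial to mesenchymal transition had 4 of 4 detected and held 0.472% ± 0.00317, with Mir10b at 2957 ± 242 CPM and Mir137 at 1220 ± 176 CPM.

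The 5 genes described here held 0.528% ± 0.000130, with a median level of 312 CPM. Over all genes of a list, detected or not, the medians of the 3 lists were 1579, 128 and 793 CPM in the order given above. The median was 166 CPM over all detected genes and 0 CPM over all 1973. The value of 128 CPM includes the undetected Mir29b-1 and Mir29b-2, so it cannot be placed below the 166 CPM of detected genes on like terms. Of the detected genes of these lists (5, 4 and 4), which were the ones tested, none was called between the pups in either direction, beside the 2.95% called of all genes tested. Mir214 stood above Mir10b and Mir27b in mean level, and Mir140 stood close to Mir137. The 2 means differed by less than the SD of Mir137 (176 CPM) but by slightly more than that of Mir140 (52.0 CPM).

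**Figure D5:**
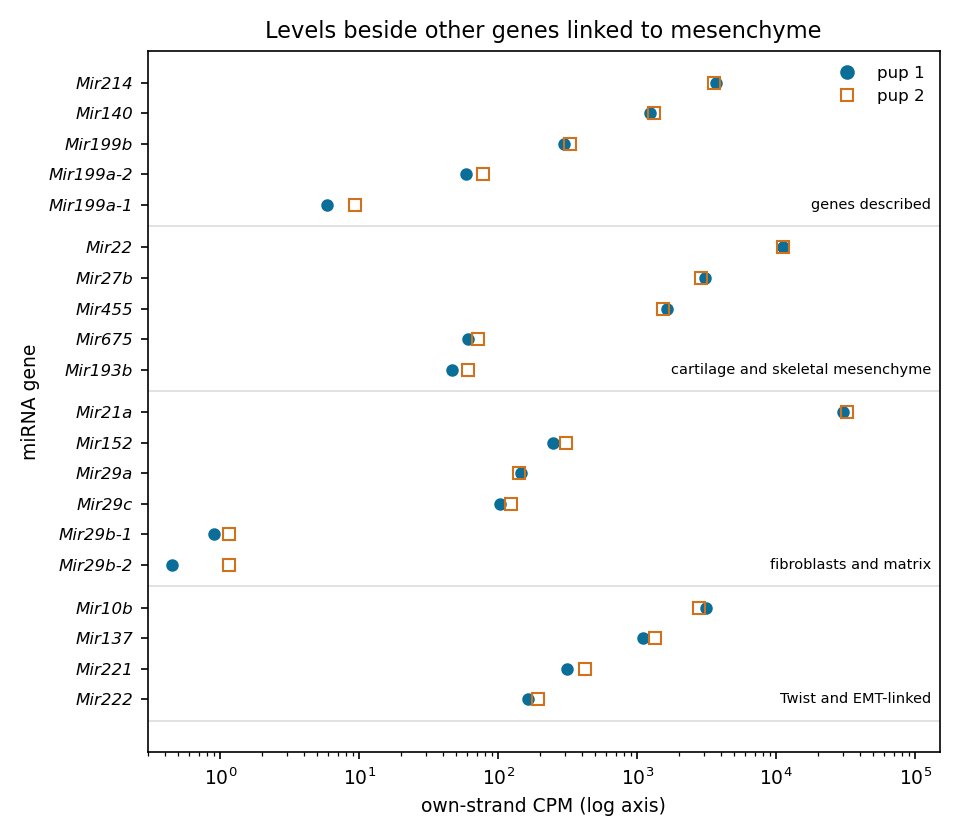
Own-strand CPM (x axis, log) of the 5 genes described and of the 15 genes of the 3 lists (rows), with pup 1 as filled circles and pup 2 as open squares. Mir214 stands with Mir27b and Mir10b, and Mir199a-1 stands between these and the undetected Mir29b genes.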

How the data were processed

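For each library the authors deposited raw counts of reads for 1973 miRNA genes, unstranded and per strand. The deposited description files give mm10 as the assembly and M4 as the annotation. The aligner and counter were not given in the sources used here. Rows that name no gene (36.5% and 36.3% of reads) stayed out of totals. The strand column with the larger total, 97.7% and 97.8% of gene counts, was taken as the genes' own strand. Own-strand counts summed to 4463355 in pup 1 and 3454655 in pup 2, and 1 read is 0.224 and 0.289 CPM.

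Symbols and positions came from GENCODE M21, in which 1894 identifiers matched without their version. Mature and hairpin sequences came from RefSeq (GRCm38.p6), and windows of 20 nt were compared with M21 hairpins. Intervals are exact (Clopper-Pearson, 95%). Pup differences were tested with a two-sided exact binomial test on TMM factors from edgeR 4.0.16 (R 4.3.3), and that test was checked on simulated data. The edgeR exact test with the common dispersion of an intercept-only model (coefficient of variation 11.4%) and DESeq2 1.42.0 size factors were alternatives. Python 3.11.15, scipy 1.17.1 and pandas 2.3.3 did the rest, and RNAfold 2.7.2 gave folding energies.

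Named are the 5 members, their 3 nearest detected genes, host and opposite genes, and genes sharing a listed seed or lying within 10 kb. The highest 2 of each list, Mir143 as the most abundant gene and some of the marker genes were also named. Mir206, Mir29b-1 and Mir29b-2 were named after their values were seen. The members and lists were chosen with earlier results of these data known.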

Additional observations from a re-analysis of the deposited data

How the results depend on the processing

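Levels depend on the denominator. Without Mir143, the most abundant gene, in the total, Mir214 averaged 4770, Mir140 1679, Mir199b 412 and Mir199a-2 89.3 CPM, and the sum 0.696%. Over all reads of the tables the values were 2247, 792, 194, 42.1 and, for Mir199a-1, 4.69 CPM, and the sum 0.328%. With both strands summed the sum was 0.516%. The order of the genes held under both settings run for it, per nucleotide of hairpin and with both strands. With 2 libraries, leaving out 1 pup only returns the values of the other, so it is no separate check. These ran from 3552 to 3678 CPM for Mir214, 1237 to 1310 for Mir140, 298 to 326 for Mir199b, 58.3 to 77.3 for Mir199a-2 and 5.83 to 9.26 for Mir199a-1. The log2 ratio of Mir214 over Mir199a-2 was 5.52 to 5.98.

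The number of genes called between the pups was 16 with total counts (1 higher in pup 1 and 15 in pup 2) and 1 with edgeR's common dispersion, and 508 genes had at least 1 count in each library; the cause was not tested. No member was called under any of the 6 alternatives, of which the minimum of 50 counts leaves out Mir199a-1. Scaling by total counts moved the median log2 ratio of all genes, that of Mir199b, to -0.13, against -0.02 with TMM, and relative to that median the genes kept their places. By value the ratio of Mir140 became -0.08 with total counts and that of Mir199b 0.00 without the count filter. Over the alternatives the adjusted p of Mir214 ran from 4.2e-24 to 1.00, of Mir140 from 0.0097 to 1.00, of Mir199b from 0.059 to 1.00, of Mir199a-2 from 0.0036 to 1.00 (0.11 without the count filter) and of Mir199a-1 from 0.15 to 1.00, the value near 1 being that of edgeR's common dispersion for Mir214, Mir199a-2 and Mir199a-1. No paired analysis was possible because both libraries belong to 1 group. Depth limits Mir199a-1 most, with 26 and 32 counts.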
